A study of Drosophila melanogaster with 2 samples.

Results

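The 9 genes described here are moody, Gs2, gcm, gcm2, loco, nrv2, Nrx-IV, Eaat1 and wrapper, known for roles in glia and in the blood-brain barrier of Drosophila melanogaster. They were chosen by symbol for those roles, with earlier results of these data known. All 9 were found among the 13945 protein-coding genes annotated on 6 chromosome arms (Ensembl release 115, BDGP6, the coordinates of dm6). The measurement was chromatin immunoprecipitation sequencing of CG11085, a homeobox gene, in whole embryos aged 0 to 24 hours. The embryos came from a transgenic line with an insertion that fuses CG11085 to eGFP, and an antibody against GFP pulled down the fusion. There was 1 group of 2 biological replicates, and both carry the same insertion. No library from embryos without the fusion was analysed here, so background at these genes is not measured. Chromatin of whole embryos holds every cell type, and the cells in which a region was bound cannot be told apart.

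In the insect nervous system a layer of surface glia forms the blood-brain barrier, and the cells of that layer are sealed to each other by septate junctions. Moody is a G protein-coupled receptor of this layer, and loco encodes a regulator of G protein signalling that acts with it. Nrx-IV (neurexin IV) and nrv2 (nervana 2, a beta subunit of the sodium pump) are septate junction components. The transcription factors gcm (glial cells missing) and gcm2 start the glial fate, Gs2 encodes glutamine synthetase, Eaat1 a glutamate transporter, and wrapper a cell-surface protein of midline glia.

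Binding was read from the authors' conservative list of peaks, which both replicates support at an irreproducible discovery rate (IDR) of at most 0.01. Of its 2649 peaks, 2610 lay on the 6 arms. The summit, the position of highest signal, was compared with the transcription start sites (TSSs) and with the gene body. Below that list stand 139970 ranked regions on the same arms that did not reach its lowest score. Each region has a signal from pooled reads and a signal in each replicate, both the authors' own values on a scale that is not stated. Read totals are unknown. Replicate 1 had the higher signal at 91.2% of peaks in the conservative list, and the ratio of its signal to that of replicate 2 had a median of 1.51.

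Moody and Gs2 carried a conservative peak near a TSS, and the other 7 genes carried none near a TSS or in the body. A summit of the list fell within 1 kb of a TSS in 2 of 9 members, against 15.1% of all protein-coding genes. In the gene body, 1 of 9 members, Gs2, had one, against 7.85% of all protein-coding genes. These counts are descriptions and were not tested.

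The same genes were found in each replicate on its own. The thresholded list of replicate 1 placed a summit within 1 kb of a TSS of moody and Gs2 (2 of 9, against 13.3% of all protein-coding genes), and so did the list of replicate 2 (2 of 9, against 11.2%). In the body only Gs2 was counted, in replicate 1 (1 of 9, against 6.32%) and in replicate 2 (1 of 9, against 5.51%). The authors' larger list over both replicates added no member. It gave 2 of 9 near a TSS, against 17.3% of all protein-coding genes, and 1 of 9 in the body, against 9.26%.

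**Figure D1:**
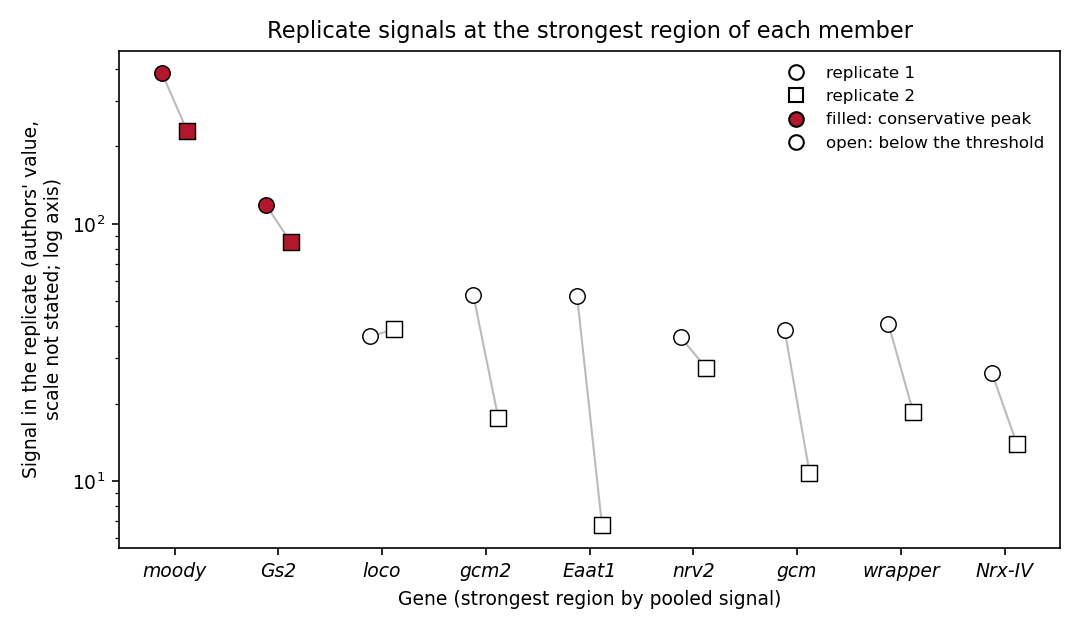
Signal in replicate 1 (circles) and in replicate 2 (squares) at the region of highest pooled signal of each of the 9 genes, on a log axis. Filled symbols are conservative peaks and open symbols lie below the threshold; moody and Gs2 stand above the other 7 genes in both replicates.

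Moody (FBgn0025631, X:2044292-2050120, minus strand, 5829 bp, 6 transcripts from 2 TSSs) had the stronger of the 2 peaks. The signal of this peak was 385 in replicate 1 and 231 in replicate 2, and 604 in pooled reads. Its −log10 global IDR was 5.0. It ranked 61 of 2610 conservative peaks by signal, in the top 2.34%, and it ranked 53 of 2006 in replicate 1's list and 80 of 1750 in replicate 2's list. The 2 replicates thus placed it close to the top of their own lists, and their own summits, at 2050291 and 2050290, were 1 bp apart. Its neighbours in the ranking lay near the TSSs of msi (pooled signal 605, 201 bp upstream) and Mppe (pooled signal 598, 115 bp upstream). The replicate signals of those neighbours were 344 and 257 at msi, and 336 and 274 at Mppe, in replicates 1 and 2.

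The moody peak spans X:2050180-2050394, and its summit is 171 bp upstream of the more distal TSS, outside all 6 moody transcripts. The position is also inside CG4313, a gene on the opposite strand (X:2041868-2055414) that contains moody whole. There the summit falls in an intron of 2 CG4313 transcripts and outside 1. A summit at that place cannot be assigned to moody and not to CG4313 from distance alone, although the nearest TSS of a protein-coding gene is that of moody. Around the second, internal TSS of moody, the strongest ranked region had a pooled signal of 24.9, with 11.97 in replicate 1 and 12.54 in replicate 2, at the file's highest global IDR of 0.863. The peak was therefore measured at 1 of the 2 annotated starts.

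Gs2 (FBgn0001145, X:11422832-11430197, plus strand, 7366 bp, 6 transcripts from 2 TSSs) had a weaker peak. Its signal was 119 in replicate 1 and 84.9 in replicate 2, and 211 in pooled reads, with a −log10 global IDR of 3.89. It ranked 510 of 2610 by signal, in the top 19.5%, against a median signal of 124 over the conservative list. Its rank was 597 of 2006 in replicate 1 and 533 of 1750 in replicate 2, in the top 29.8% and 30.5% of those lists. The peaks directly above and below it were nearest to Gr89a (pooled signal 211, replicates 125 and 99.97) and CG3358 (pooled signal 210, replicates 151 and 68.6).

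The Gs2 peak spans X:11423344-11423454. Its summit is 538 bp upstream of the downstream TSS, in an intron of 2 transcripts and outside the other 4. At 111 bp the deposited interval is narrow, since only 3.22% of conservative peaks were as narrow and the median width was 340 bp. The moody peak was 215 bp wide, and 14.3% were as narrow as that. Every sub-threshold region at the members was also 340 bp wide, so widths describe the deposited intervals and not the extent of binding. No other gene has a TSS within 1 kb of either summit. The window decides the Gs2 count near a TSS, because a window of 500 bp leaves only moody.

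The sequences of both peaks are shown whole, since they are the only members' regions in the conservative list, and they differ in base composition. They were read from the RefSeq copy of the Release 6 assembly on the plus strand. Capitals mark matches, on either strand, to a set of 9 words. They are TAATTA and likewise CAATTA (words of the homeodomain type), TATCGATA (the DNA replication-related element) with its part CGATA, the GAGA factor word GAGAG, a core promoter word GGTCACAC, an E-box CACGTG, the Gcm word ATGCGGG, and lastly AGCTGTT, given by its letters alone. CGATA is contained in TATCGATA. GAGAG appears on the plus strand as CTCTC where it lies on the minus strand, and CAATTA as TAATTG.
moody, X:2050180-2050394: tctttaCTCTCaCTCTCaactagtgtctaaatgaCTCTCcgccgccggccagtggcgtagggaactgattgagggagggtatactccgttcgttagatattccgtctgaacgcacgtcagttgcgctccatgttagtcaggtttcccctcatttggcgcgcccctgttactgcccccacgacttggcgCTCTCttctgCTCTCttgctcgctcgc
Gs2, X:11423344-11423454: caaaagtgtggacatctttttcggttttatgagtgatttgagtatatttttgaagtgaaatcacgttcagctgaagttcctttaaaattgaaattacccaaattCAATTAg

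In the moody peak, all 5 matches were to GAGAG, and all stood as CTCTC on the plus strand toward the edges of the peak. None lay within 50 bp of the summit, where none of the 9 words was found, and 4 lay within 100 bp. Within 100 bp, GAGAG was held by 22.7% of conservative summits and 23.1% of sub-threshold summits. The Gs2 peak held 1 match, CAATTA, 29 bp from the summit. Within 50 bp that word was held by 11.0% of conservative and 8.18% of sub-threshold summits. In the 101 bases around the summit, G and C made up 52.5% at moody and 28.7% at Gs2, against a median of 33.7% over conservative summits. The moody value exceeded that of 90.8% of conservative summits, and the Gs2 value that of 26.4%. Matches are descriptions of letters and not of sites.

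**Figure D2:**
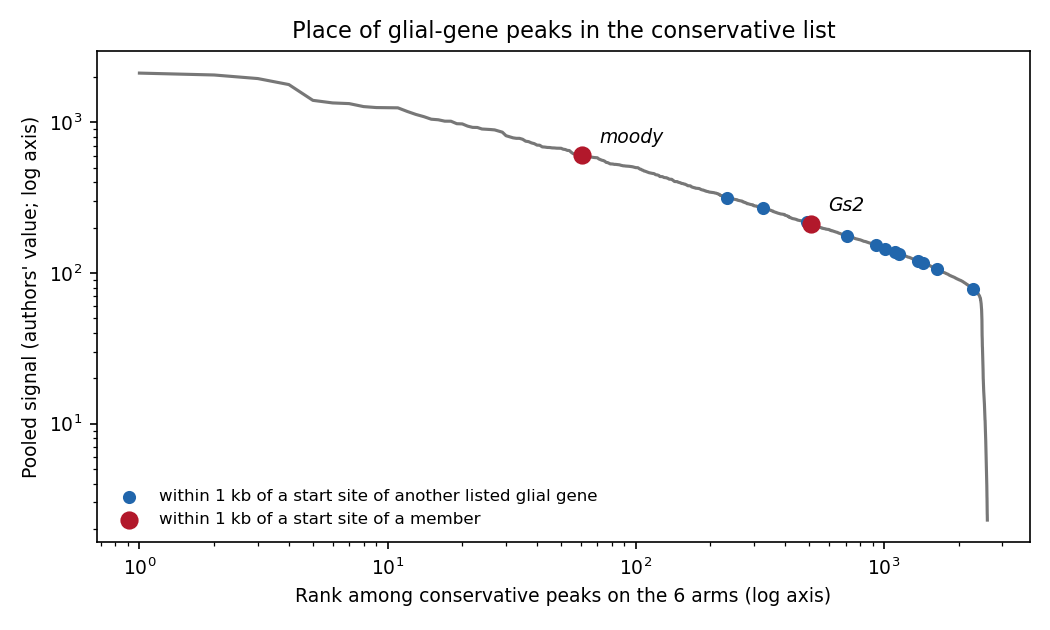
Pooled signal (log axis) against rank (log axis) for the 2610 conservative peaks on the 6 arms, with the peaks near a TSS of moody and Gs2 in red and those near a TSS of other listed glial genes in blue. Moody stands at rank 61 and Gs2 at rank 510, and no blue point lies above moody.

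The other 7 genes had no conservative summit, but each had ranked regions below the threshold. Ranked summits are common in gene bodies, with a median of 1.12 per kb over all protein-coding genes. The 9 members ran from 0.658 per kb at wrapper to 2.17 at gcm2. Over all 9 members there were 99 sub-threshold regions, of which 3, or 3.03%, had a global IDR of 0.1 or below, against 2.51% of all sub-threshold regions. In 51 of the 99 the global IDR was at the file's highest value, a share of 51.5% against 45.2% of all sub-threshold regions. Replicate 1 had the higher signal in 75 of the 99 (75.8%, median ratio 1.87), against 73.7% and a median ratio of 1.62 in all sub-threshold regions.

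Loco came nearest to the threshold. Loco (FBgn0020278, 3R:22619968-22639387, minus strand) is with 19420 bp the longest of the members and has 4 TSSs. At its strongest region replicate 1 gave 36.5, replicate 2 gave 38.9 and pooled reads gave a signal of 79.7. The −log10 global IDR was 1.59, which is a global IDR of 0.0256. The summit was in an intron of all 5 transcripts, 1720 bp from the nearest TSS. Here replicate 2 was slightly the higher, unlike most conservative peaks. A further loco region, with its summit in a coding exon, gave 36.7 in replicate 1, 24.0 in replicate 2 and 54.7 in pooled reads, with a −log10 global IDR of 1.32.

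The nrv2 gene (FBgn0015777, 2L:6789770-6798862, minus strand, 9093 bp, 4 TSSs) had the only other region at a global IDR of 0.1 or below among the 7. Its signal was 36.2 in replicate 1 and 27.7 in replicate 2, and 53.4 in pooled reads, with a −log10 global IDR of 1.44. The summit lay 384 bp upstream of a TSS, in an intron of 2 transcripts and outside 4. With the threshold loosened to a global IDR of 0.1, which was chosen after seeing the data, 3 of 9 members had a summit near a TSS (moody, Gs2 and nrv2), against 23.4% of all protein-coding genes. In the body the count was likewise 3 of 9 (Gs2, loco and nrv2), against 16.4%.

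In gcm, gcm2, Eaat1 and wrapper the region of highest pooled signal had its summit in a coding exon. Replicate 1 was the higher in each. These 4 genes were grouped after their values were seen. At gcm2 (FBgn0019809, 2L:9608562-9612706) the signal was 52.9 in replicate 1 and 17.7 in replicate 2. At Eaat1 (FBgn0026439, 2L:9333567-9341925) it was 52.5 in replicate 1 and 6.74 in replicate 2, the widest gap of the 9, with a ratio of 7.78. At gcm (FBgn0014179, 2L:9579498-9581745) it was 38.9 in replicate 1 and 10.8 in replicate 2. At wrapper (FBgn0025878, 2R:22379637-22382675) the signal was 41.0 in replicate 1 and 18.5 in replicate 2. Their −log10 global IDR was 0.763 at gcm2, 0.920 at wrapper, 0.165 at gcm and 0.128 at Eaat1, far from the value of 2.00 at the threshold. At gcm and Eaat1 another region had a higher −log10 global IDR, 0.349 and 0.369. Both of those summits lay upstream within 1 kb of a TSS, outside all transcripts of the gene. The signals there were 26.4 in replicate 1 and 13.1 in replicate 2 at gcm. At Eaat1 they were 25.6 in replicate 1 and 13.6 in replicate 2. The place in a coding exon and the gap at Eaat1 thus belong to the choice by pooled signal. Coding exons held the summit of 20.9% of all sub-threshold regions and of 2.61% of conservative peaks. The median ratio of replicate 1 to replicate 2 over all sub-threshold regions was 1.77 in coding exons and 1.58 elsewhere.

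Nrx-IV (FBgn0013997, 3L:12146519-12156990, plus strand, 10472 bp, 1 TSS) had the weakest top region of the 9. Its signal was 26.2 in replicate 1, 13.9 in replicate 2 and 44.7 in pooled reads, with a −log10 global IDR of 0.388. The summit was in an intron, 2629 bp downstream of the Nrx-IV TSS and 125 bp upstream of a TSS of CG32099.

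**Figure D3:**
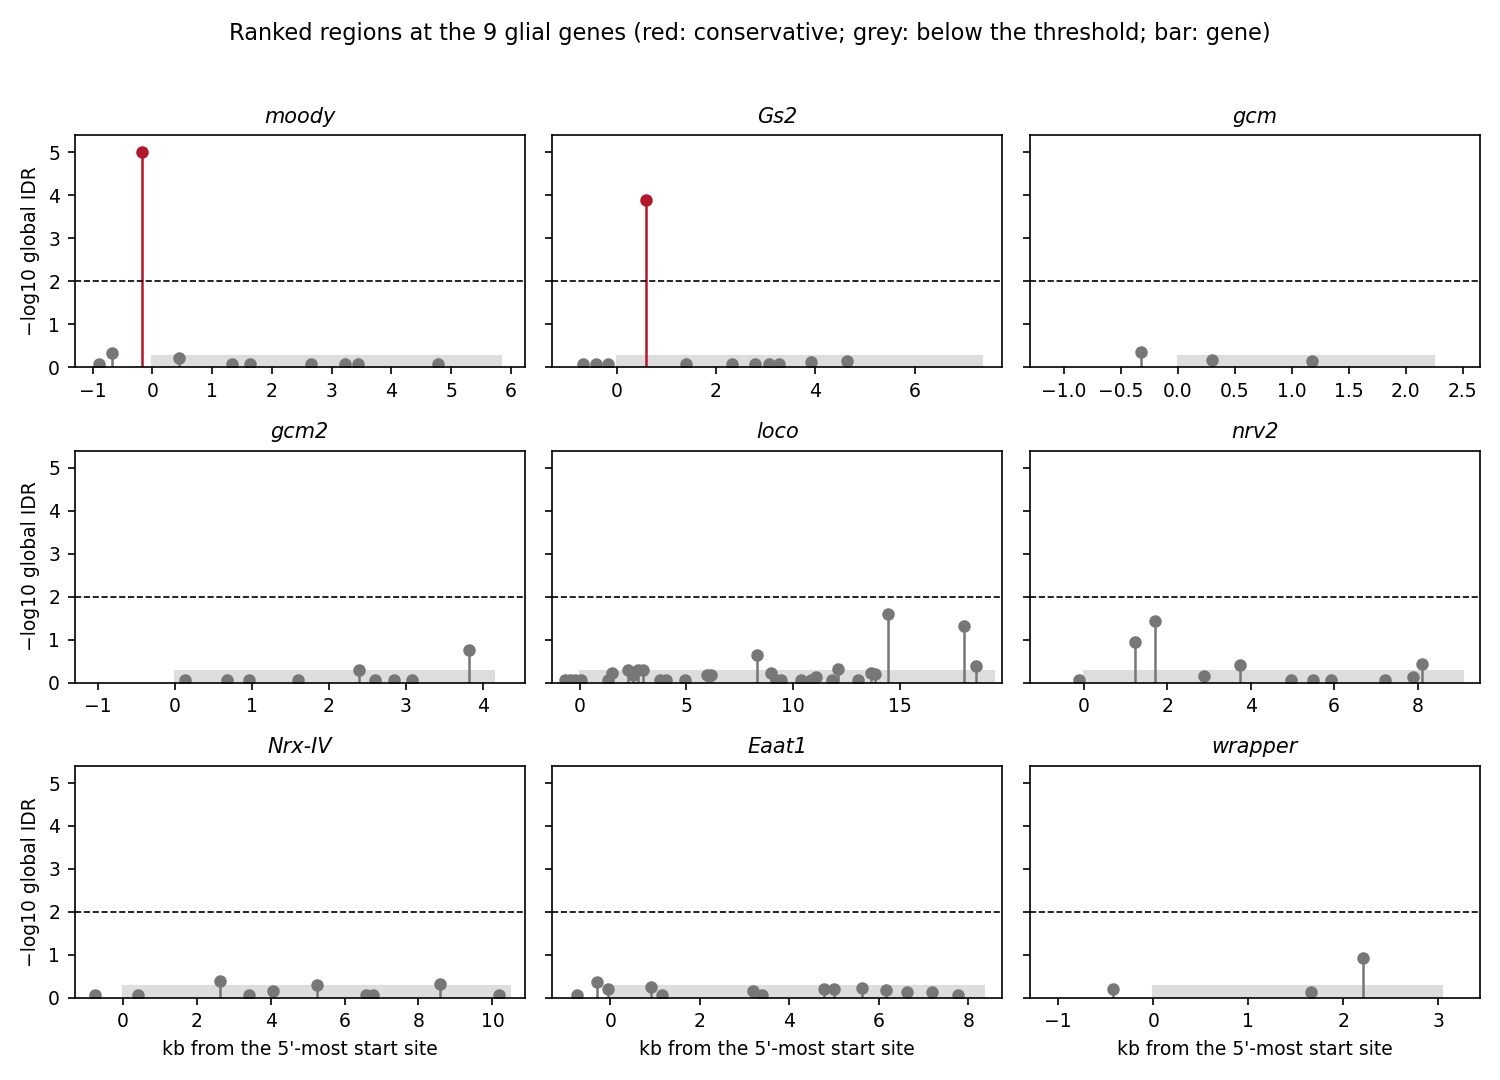
All ranked regions at the 9 genes, by the distance of the summit from the gene's 5'-most TSS (kb) and by −log10 global IDR. Red marks conservative peaks, grey marks regions below the threshold, the dashed line is the threshold of 2.00 and the grey bar is the gene. Red points are present at moody and Gs2, and loco and nrv2 hold the highest grey points.

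Placed among all protein-coding genes by their strongest ranked signal within 1 kb of a TSS, moody stood at percentile 99.4 and Gs2 at 95.7. The remaining members spread widely. Nrv2 stood at 69.7, gcm at 62.6 and loco at 61.0, while Eaat1 stood at 32.5, wrapper at 32.1, gcm2 at 22.3 and Nrx-IV at 16.7. Over the gene body, Gs2 stood at 98.1, loco at 91.7 and gcm2 at 86.0, while moody stood at 54.1. The moody peak thus counts toward its TSS and not toward its body. Eaat1 stood at 79.1 over the body, nrv2 at 76.3, gcm at 68.4, wrapper at 67.7 and Nrx-IV at 64.1. Longer genes have more sequence in this count. By length, loco stood at percentile 92.4, Nrx-IV at 86.5, nrv2 at 84.9, Eaat1 at 83.9 and Gs2 at 82.2. Below these were moody at 78.2, gcm2 at 70.7, wrapper at 62.2 and gcm at 51.5. Nrx-IV, nrv2 and Eaat1 are longer than Gs2 but stood lower over the body, so the 2 orders differ.

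The sequences around the summits of loco, nrv2 and gcm2 are shown because they are the strongest regions of the 3 kinds met below the threshold, namely intronic and distal, intronic near a TSS, and coding. Each has 101 bases centred on the summit, on the plus strand, with the same words in capitals.
loco, 3R:22624864-22624964: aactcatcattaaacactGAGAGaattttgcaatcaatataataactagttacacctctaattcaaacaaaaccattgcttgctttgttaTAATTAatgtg
nrv2, 2L:6797117-6797217: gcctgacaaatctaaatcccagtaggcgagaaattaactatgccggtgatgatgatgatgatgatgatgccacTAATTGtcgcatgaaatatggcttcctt
gcm2, 2L:9612340-9612440: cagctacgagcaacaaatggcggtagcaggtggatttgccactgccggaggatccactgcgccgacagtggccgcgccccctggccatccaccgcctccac

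The loco sequence is 27.7% G and C, and holds TAATTA 40 bp from the summit and GAGAG 32 bp before it. The nrv2 sequence is 41.6% G and C, and holds CAATTA, as TAATTG on the plus strand, 23 bp from the summit. The gcm2 sequence is 66.3% G and C, more than at 99.3% of conservative summits, and holds none of the 9 words. Within 50 bp, TAATTA was held by 8.66% of conservative summits and 5.21% of sub-threshold summits. At the remaining members, the Nrx-IV region held ATGCGGG, which was held by 0.307% of conservative and 0.831% of sub-threshold summits. The regions of gcm, Eaat1 and wrapper held none. In the promoters, taken as 250 bp upstream to 50 bp downstream of any TSS, GAGAG was present in 6 of 9 members, against 36.4% of all protein-coding genes. TAATTA was present in 2 of 9 (Gs2 and loco), against 24.3%, CAATTA in 3 of 9, against 30.4%, and CGATA in 5 of 9, against 53.1%. AGCTGTT was present in 2 of 9, against 13.1%. TATCGATA, GGTCACAC and likewise ATGCGGG were each in 1 of 9, against 10.2%, 8.71% and 1.60%, and CACGTG was in 0 of 9, against 5.34%. Genes with more TSSs have more sequence in this count, and 5 of the 6 members with GAGAG have 2 to 4 TSSs, while 10246 of the 13945 genes have 1.

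The nearest conservative peaks to the 7 members lay outside the members by 1906 bp or more, and the genes named here are those with the nearest TSS. For nrv2 the nearest summit was 1906 bp beyond the 3' end, on the side of its paralogue nrv1. That entry had a pooled signal of only 2.49 and ranked 2608 of 2610. Of the 4 conservative entries there, the strongest had a pooled signal of 140, with 83.0 in replicate 1 and 61.7 in replicate 2. Its summit lay 2666 bp beyond the 3' end of nrv2 and 243 bp upstream of the nrv1 TSS. The other entries there either shared the replicate regions of that peak or, in a pair, shared regions of 40.8 in replicate 1 and 89.5 in replicate 2. For gcm2 the nearest summit was 4126 bp away, 4 bp from the TSS of GlcAT-S, and for Nrx-IV it was 7745 bp away, 94 bp from the TSS of RhoGAP68F. For gcm it was 9422 bp away, near brwl. The 26816 bp between gcm and gcm2, which lie next to each other as related genes, held 0 conservative summits and 33 ranked ones. The median density of ranked summits in protein-coding gene bodies was 1.12 per kb. For wrapper, loco and Eaat1 the distances were 12772, 23294 and 46291 bp.

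Gene structure bears on what can be counted. A conservative summit in the body was found in 3.14% of protein-coding genes under 5 kb, in 12.7% of those from 5 to 10 kb, and in 22.7% of those from 10 to 20 kb. A summit within 1 kb of a TSS was found in 11.4% of genes with 1 TSS, 22.0% with 2, and 31.8% with 3 or 4. Moody and Gs2, the members with a peak, have 2 TSSs each. Eaat1, also with 2, and loco and nrv2, with 4 each, had no peak. Both members with a peak are on the X chromosome, which holds no other member. On the X, 14.6% of genes had a summit near a TSS, against 15.2% on the other arms, and 10.2% had one in the body, against 7.40%.

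Other genes of the same pathways were counted from lists that also hold the members belonging to them. Of the 8 genes of the Moody receptor pathway, 1 had a conservative summit near a TSS, moody itself, against 15.1% of all protein-coding genes. Galphao, a G protein alpha subunit, had one in replicate 2's list (signal 41.4, 201 bp upstream of its TSS) and in the larger list, and had none in the conservative list or in replicate 1's list. In the body 1 of the 8 had a conservative summit, against 7.85% of all protein-coding genes. That was Pka-C1, the catalytic subunit of protein kinase A, with 2 summits of pooled signals 125 and 76.3.

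The septate junction list had 5 of 23 genes with a summit near a TSS, against 15.1% of all protein-coding genes, and neither of its members described above, Nrx-IV and nrv2, was among the 5. They were Tsf2 (pooled signal 271), dlg1 (218, with a further peak of 153), bark (176 and 137), cold (145) and pck (134). Pck is a claudin-like protein, dlg1 encodes the scaffold Discs large, and Tsf2 a transferrin of the junction. In each of these 5 the call was also made in replicate 1 and in replicate 2. The peaks at Tsf2, cold and pck and the stronger bark peak also had the TSS of another gene within 1 kb (CG34242 and Pmm2 at Tsf2, Ipk2 at cold, CG32808 at pck, CR31958 at bark). In the body, the list had 5 of 23 (pck, cold, bark, dlg1 and scrib), against 7.85% of all protein-coding genes, and scrib was not in replicate 2's list.

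Among genes of glial specification, 1 of 9 had a summit near a TSS, against 15.1% of all protein-coding genes. It was numb (pooled signal 315, 188 bp upstream), an inhibitor of Notch signalling. In the body there were 4 of 9, against 7.85% of all protein-coding genes, namely numb, N (pooled signal 138), pros (pooled signal 105) and pnt (4 peaks, the strongest with a pooled signal of 100). Calls in the body were more frequent in longer genes, and this list has long genes, with a median of 23487 bp. Within the gene, N was called in replicate 2's list only, and pros in neither replicate's list. Neither gcm nor gcm2 was among the 4, nor repo, the glial homeobox gene. Of the 14 genes of glial transport and metabolism, 2 had a summit near a TSS, against 15.1% of all protein-coding genes. They were Gs2 and chk (pooled signal 106), a monocarboxylate transporter. In the body there were 3 of 14 (Gs2, chk and Inx2), against 7.85%. Within the gene, Inx2 (pooled signal 94.7), an innexin, was called in replicate 1's list and not in replicate 2's. Chk was called in neither replicate's own list and not in the larger list. The chk summit is also 507 bp from a TSS of CG45092. Of the 15 genes of ensheathment and engulfment, 2 had a summit near a TSS, against 15.1% of all protein-coding genes. They were ced-6 (pooled signals 120 and 117) and Egfr (pooled signal 78.6). In the body there were 4 of 15 (ths, Egfr, vn and ced-6), against 7.85%. The median length of this list was 12653 bp. Within the gene, vn was called in neither replicate's own list, and Egfr and ced-6 in replicate 1's list only. Near a TSS, Egfr was in neither replicate's own list, and ced-6 was in that of replicate 1 and not of replicate 2. In the ced-6 case the second peak is also 118 bp from a TSS of Camta. Wrapper had none, and htl was called near a TSS in replicate 2's list and in none of the other lists used.

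Taking the 60 listed glial genes other than the 9 members, 9 had a conservative summit near a TSS, against 15.1% of all protein-coding genes, and 16 had one in the body, against 7.85%. The lists were not matched to all genes for length or number of TSSs. Near a TSS, replicate 1's list gave 8 of the 60, against 13.3% of all protein-coding genes, and replicate 2's list gave 9, against 11.2%. Only 6 genes were in both of these lists (pck, cold, Tsf2, bark, dlg1 and numb). Of the 9 conservative calls, ced-6 was in replicate 1's list and not in replicate 2's, and chk and Egfr were in neither. Of the 12 neuronal genes set beside them, 1 had a conservative summit near a TSS, against 15.1% of all protein-coding genes, and 2 in the body, against 7.85%. Elav (pooled signals 487 and 233), the pan-neuronal RNA-binding protein gene, was counted in both places, and ChAT in the body. The median length of the neuronal list was 31982 bp. Moody at 604 had a higher pooled signal than any peak of these lists near a TSS.

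**Figure D4:**
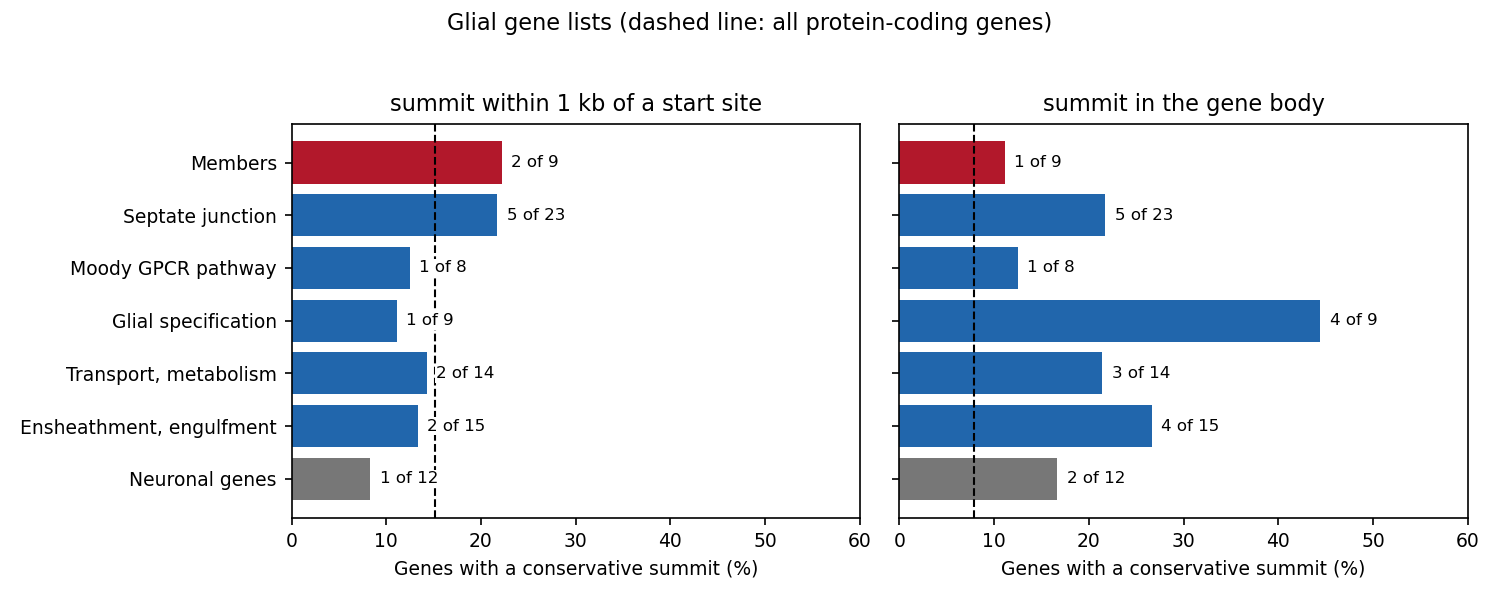
Percent of genes in each list with a conservative summit no more than 1 kb from a TSS (left) and in the gene body (right), with the counts beside each bar. The members are in red, other glial lists in blue and neuronal genes in grey, and the dashed lines are the values of all protein-coding genes, 15.1% and 7.85%. The members' bars stand for 2 and 1 of 9 genes.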

How the data were processed

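Chromatin immunoprecipitation with an anti-GFP antibody was done on whole embryos carrying CG11085-eGFP, sonicated to 200 to 800 bp, per the labels, in 2 samples labelled as biological replicates of 1 group. Peak files with dm6 coordinates were deposited by the authors after IDR thresholding, with 1 control file named in the deposited file lists. Names of the aligner and peak caller were not given in the sources used here and depth is unknown. The signal per peak is the authors' value on a scale not stated, the score is the authors' IDR score (lowest 830 in the conservative list, a global IDR of 0.01), and the −log10 global IDR was deposited by the authors in the ranked file.

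Summits were assigned to genes of Ensembl release 115 with Python 3.11.15, pandas 2.3.3 and numpy 2.4.6, and the assignment was tested on simulated summits. A summit counted within 1 kb of any TSS or inside the gene. The 2 sets compared in the ranked file were identified as replicates 1 and 2 because 93406 and 72312 of its 142665 regions were identical to regions of those samples' own ranked files, and 0 to the other's. All 81 listed symbols were matched, 5 under a newer name. Percentiles are shares of protein-coding genes with a lower value. The design holds 1 group, so there is no contrast and no test was run. Members and lists were chosen with earlier results of these data known. Named genes were the 9 members, the genes with peaks ranked next to theirs, genes sharing their summits, and up to 6 bound genes per list, while others named were chosen after their values were seen. Alternatives were other lists, windows and IDR thresholds. The ranked regions behind the larger list were not used here.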

Additional observations from a re-analysis of the deposited data

How the results depend on the processing

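The number of members with a peak near a TSS stayed at 2 with the larger list, a global IDR of 0.001, any base of the peak in place of the summit, or a window of 2 kb, and was 3 at a global IDR of 0.1. Leaving out a replicate meant taking the other replicate's own thresholded list in place of the conservative list. It gave counts of 2 to 2 members near a TSS and 1 to 1 in the body. For the 60 other glial genes it gave 8 to 9 near a TSS, with only 6 genes in both lists. A window of 500 bp gave 1 member in the conservative list, 1 in replicate 1 and 1 in replicate 2. Extending the body by 1 kb gave 2 members, moody being added. A global IDR of 0.1, chosen after seeing the data, gave 3 members in the body, against 16.4% of all protein-coding genes. The same threshold gave 22 of the 60 other glial genes near a TSS, against 23.4% of all protein-coding genes. That share of all genes was 15.1% in the conservative list, so it rose too. The glial lists were not matched to all genes for length or number of TSSs. The number of words found, summed over the moody and Gs2 summits, was 3 within 100 bp in place of 1 within 50 bp. Of 48 values for single lists, 31 stayed within 1.5 times and 17 did not. The causes were not tested. No paired analysis was possible because the result comes from no test and there is 1 group. Without read totals or a control library, a member without a peak was not detected and is not shown to be unbound.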
